A study of Arabidopsis thaliana with 44 samples.

Results

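The genes described are 43 nuclear loci of Arabidopsis that encode proteins of the photosynthetic apparatus. They are 4 LHCA and 14 LHCB genes for light-harvesting proteins, 12 PSA genes for photosystem I, 9 PSB genes for photosystem II, and 4 RBCS genes for the small subunit of Rubisco. They were taken from a list of loci by locus identifier. The rule uses no measured value, although the list was chosen with earlier results of these data known, and all 43 were among the 27827 probe sets of the array. RNA was from freshly harvested dry seed of near isogenic lines (NILs) named NIL DOG1, NIL DOG3 and NIL DOG6 for loci that affect seed dormancy. A NIL carries a chromosome segment from another accession in a common background. The plants that bore the seed grew at 15C, at 20C, in low nitrate (N0), in low light (LL) or in standard light (SL). The labels make 20C the control of both 15C and N0, and SL that of LL. With 3 arrays per NIL and condition in 14 of the 15 groups and 2 in NIL DOG3 in N0, there were 44 arrays. Each replicate is described as biological and as a bulk of 4 plants, so the values of single plants cannot be separated. The samples are labelled total RNA, although the extraction protocol also speaks of polysome RNA.

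Light-harvesting proteins bind chlorophyll and pass excitation energy to the 2 photosystems, and Rubisco fixes carbon dioxide in the Calvin cycle. Both need subunits that are made from nuclear genes and imported into the plastid as well as subunits made inside it. Arabidopsis embryos turn green in mid development and lose most of their chlorophyll as the seed matures and dries. Dry seed stores RNA that was made before desiccation.

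Signal is given as the deposited log2 value, on which a difference of 1 is a doubling. The median probe set had a mean signal of 4.29, and array medians lay between 4.22 and 4.39. The number of arrays limits the precision, with a median residual SD of 0.255 for the 43 genes and 0.199 for all probe sets. Dry seed markers (cruciferin, albumin, oleosin and EM genes, 10 of 10 above the median signal) had mean levels of 11.4 to 12 on every array. Array correlations within groups were 0.987 to 0.994, and no pair of arrays was identical. In 9 SL arrays the mean level of 6 pollen markers ran from 5.58 to 7.95, against 4.67 to 5.68 in LL. Of the 6, all above the median signal, 5 were called lower in LL. Beside this, 3.63% of all probe sets and 6.3% of those above the median signal were called lower. Results for LL were therefore also computed without the 3 SL arrays numbered 2 (7.95, 7.68 and 7.20). The SL arrays kept still ran from 5.58 to 7.05, so the difference in these markers was not removed. With fewer arrays, 395 probe sets were called higher and 461 lower in LL, in place of 759 and 1010.

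Most of the photosynthesis genes gave a dim signal in dry seed. Of the 43, 13 lay above the median of all probe sets and 30 lay below it, 6 of them in the lowest 25% of probe sets. The genes above the median were LHCA4, LHCB1.5, LHCB4.1, LHCB5, PSAD2, PSAE2, PSAH1, PSAN, PSBP1, PSBR, PSBW, PSBX and RBCS1A, so each family had at least 1. By family this was 1 of 4 LHCA, 3 of 14 LHCB, 4 of 12 PSA, 4 of 9 PSB and 1 of 4 RBCS genes. Signals of different probe sets also depend on their probes, so their order is no order of RNA amounts.

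**Figure D1:**
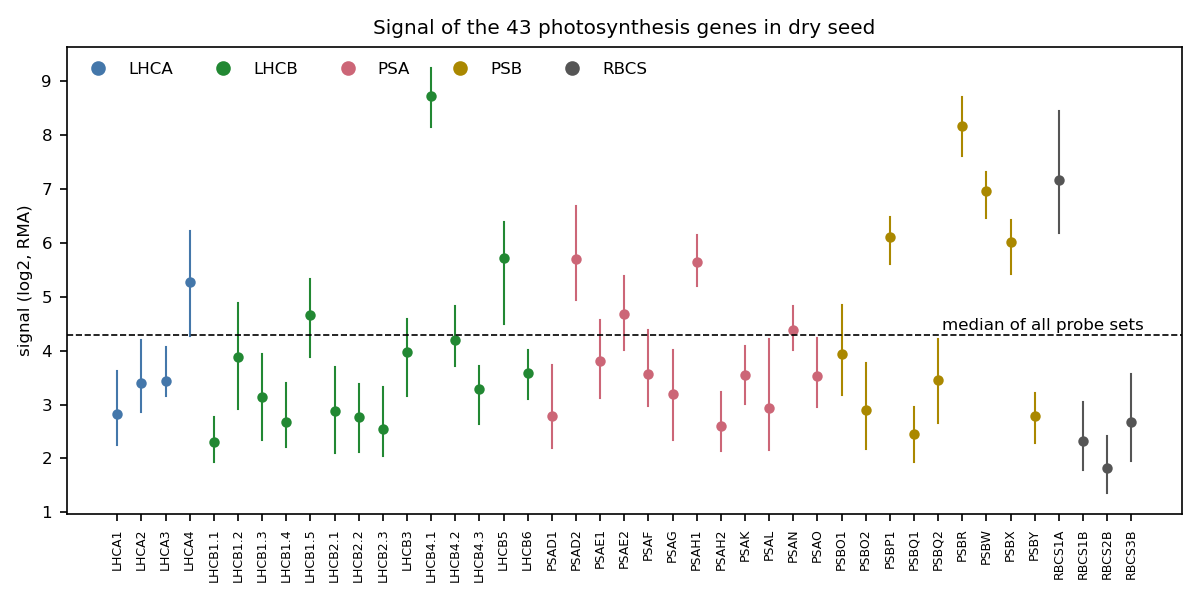
Mean signal (log2, vertical axis) of each of the 43 genes over 44 arrays as a point, with a line from the lowest to the highest array, coloured by gene family. The dashed line is the median of all probe sets (4.29), and 13 points lie above it, with LHCB4.1 (8.73) and PSBR (8.16) at the top and RBCS2B (1.82) at the bottom.

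LHCB4.1, a minor antenna protein that joins the trimeric antenna to the core of photosystem II, had a mean signal of 8.73. PSBR and PSBW, small membrane proteins of photosystem II, had 8.16 and 6.97. RBCS1A, which gives most of the small subunit RNA in leaves, had 7.17. Its relatives RBCS1B, RBCS2B and RBCS3B gave 2.32, 1.82 and 2.68, all below the median of the array. LHCB1.1 to LHCB1.4, which code for the main trimeric antenna protein, gave 2.31 to 3.89. The LHCB1 copies are nearly identical to each other, as are RBCS1B, RBCS2B and RBCS3B. Probe sequences were not used here, so values within these groups may be shared between copies, although no gene of the list had values identical to another probe set. Bulk seed RNA cannot tell fewer cells of a type from less RNA per cell.

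Low nitrate during growth of the mother plant came with less RNA of several photosystem subunits and of RBCS1A, and with more of PSAD2 and LHCB4.1. Of the 43 genes, 2 rose and 7 fell in N0 against 20C (mean of the 3 within-NIL differences, limma, adjusted p under 0.05). That is 20.9% of the genes, beside 11.9% of all probe sets called in either direction, 5.86% higher and 6.07% lower. Among the 13 genes above the median signal 6 were called (2 higher, 4 lower), beside 21.2% of all probe sets that bright. Among the 30 dimmer genes 3 were called, all lower, beside 2.64% of all probe sets that dim (1.08% lower). Without replicate 1 of NIL DOG1 in 20C, or without replicate 2 of NIL DOG6 in 20C, 4 genes in place of 7 fell. The median change of the 43 was -0.08, with 29 below zero, and the median of all probe sets was 0.01.

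RBCS1A (AT1G67090) had the lowest, median and highest array at 6.97, 7.20 and 7.51 in 20C and at 6.19, 6.64 and 6.73 in N0. No N0 array reached the lowest 20C array. RBCS1A fell by 0.62 ± 0.10 (SE) on the log2 scale, which is 1.54-fold lower (adjusted p = 3.68e-05). It was lower in 3 of 3 NILs, at -0.61 in NIL DOG1, -0.47 in NIL DOG3 and -0.78 in NIL DOG6. Of the other small subunit genes, RBCS3B differed by 0.25 ± 0.15 and did not pass (adjusted p = 0.354).

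Among photosystem II genes, PSBW and PSBR fell. PSBW (AT2G30570), which stabilises the complex of photosystem II with its antenna, ran from 6.90 to 7.27 in 20C (median 7.04) and from 6.46 to 6.84 in N0 (median 6.58). These ranges did not overlap. The fall was 0.45 ± 0.07, or 1.36-fold (adjusted p = 3.45e-05), in 3 of 3 NILs. PSBR (AT1G79040), which helps to hold the water-splitting proteins, ran from 8.07 to 8.49 in 20C (median 8.30) and from 7.68 to 8.14 in N0 (median 7.87). The ranges overlapped by 1 N0 array, and the other 7 of 8 lay below every 20C array. PSBR fell by 0.42 ± 0.08 (1.34-fold, adjusted p = 0.000176). The other 7 PSB genes, which include the water-splitting proteins PSBO, PSBP and PSBQ, did not pass. Of these the largest difference was PSBY at -0.25 ± 0.10 (adjusted p = 0.0931).

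In photosystem I the paralogues PSAD1 and PSAD2 moved in opposite directions. Both encode the stromal subunit at which ferredoxin docks. PSAD2 (AT1G03130) had its lowest, median and highest array at 4.93, 5.51 and 5.92 in 20C and at 5.97, 6.24 and 6.69 in N0. Every N0 array was above every 20C array. PSAD2 rose by 0.82 ± 0.11, or 1.76-fold (adjusted p = 6.04e-07), with 0.82, 0.56 and 1.08 in NIL DOG1, NIL DOG3 and NIL DOG6. PSAD1 (AT4G02770), a dim probe set, had 2.64, 2.87 and 3.57 in 20C and 2.25, 2.46 and 3.04 in N0. It fell by 0.45 ± 0.14 (1.37-fold, adjusted p = 0.0300), with 6 of 8 N0 arrays below every 20C array. Without replicate 2 of NIL DOG6 in 20C the difference was -0.35 and no longer passed (adjusted p = 0.0917).

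PSAG (AT1G55670), a peripheral subunit next to the photosystem I antenna, was the gene that fell furthest. It had 3.00, 3.48 and 4.02 in 20C and 2.34, 2.58 and 3.17 in N0, and 6 of 8 N0 arrays lay below every 20C array. The fall was 0.82 ± 0.16, or 1.77-fold (adjusted p = 0.00036), with -0.56, -0.90 and -1.0 in NIL DOG1, NIL DOG3 and NIL DOG6. PSAG is among the genes below the median signal. The remaining 9 PSA genes did not pass.

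Among antenna genes, LHCB4.1 (AT5G01530) had 8.41, 8.60 and 8.87 in 20C and 8.47, 9.11 and 9.24 in N0. The ranges overlapped, since NIL DOG6 was lower in both conditions, and 5 of 8 N0 arrays exceeded every 20C array. LHCB4.1 rose by 0.34 ± 0.06 (1.27-fold, adjusted p = 5.74e-05), in 3 of 3 NILs. LHCB1.5 had 4.29, 4.81 and 5.15 in 20C and 3.89, 4.54 and 4.72 in N0, and fell by 0.41 ± 0.12 (adjusted p = 0.0232). LHCB3, the third protein of the trimeric antenna, had 3.72, 4.09 and 4.49 in 20C and 3.42, 3.72 and 4.12 in N0, and fell by 0.37 ± 0.11 (adjusted p = 0.0262). Both calls were lost without replicate 1 of NIL DOG1 in 20C, and without replicate 2 of NIL DOG6 in 20C. They were also lost without NIL DOG3 N0 replicate 2 (LHCB1.5) or replicate 3 (LHCB3), which leaves 1 array in that group. The 4 LHCA genes did not pass, and differed at most by -0.14 ± 0.14 (LHCA4) and -0.14 ± 0.14 (LHCA1).

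**Figure D2:**
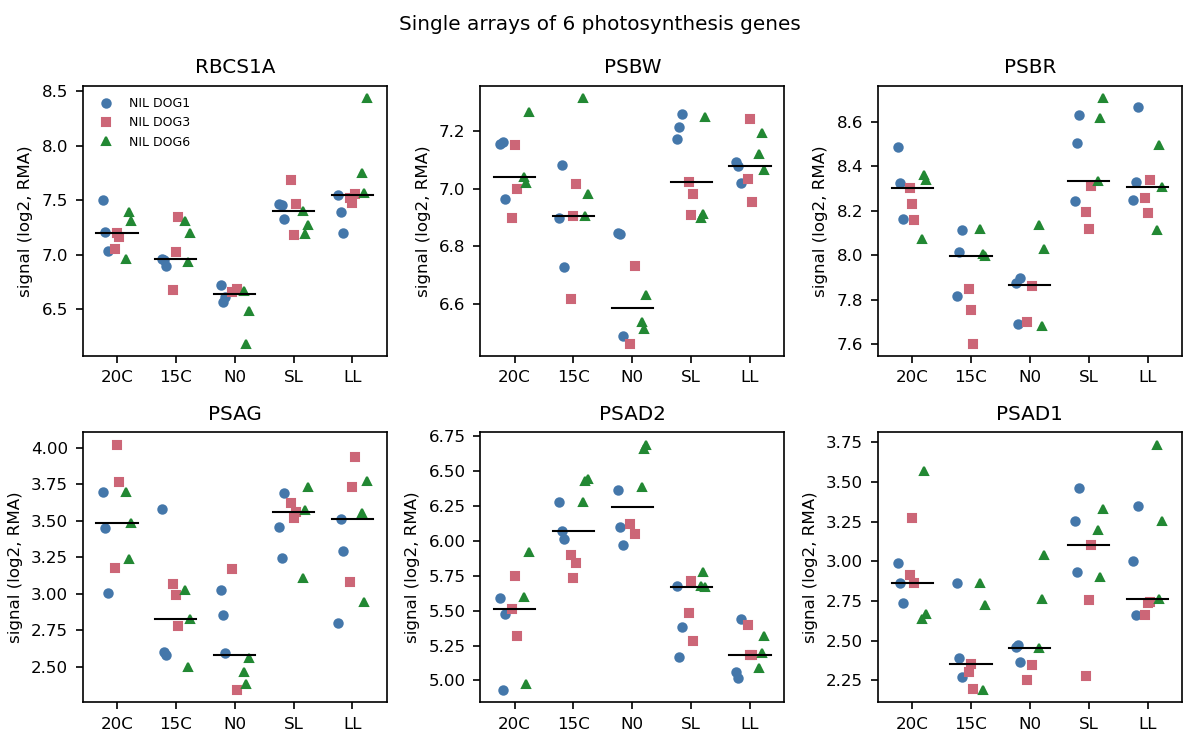
Signal (log2, vertical axis) of RBCS1A, PSBW, PSBR, PSAG, PSAD2 and PSAD1 on single arrays by condition, with symbols for the 3 NILs and a bar at the median of each condition. The N0 arrays of RBCS1A and PSBW lie below all 20C arrays and those of PSAD2 above all of them, while in LL and SL the ranges overlap for all 6 genes.

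Within single NILs, which have fewer arrays, LHCB4.1 and PSAD2 rose and PSBR and RBCS1A fell in NIL DOG1, beside 2.75% of all probe sets called. In NIL DOG3 only LHCB4.1 passed (2.96% of all probe sets), and in NIL DOG6 PSAD2 rose and PSAG, PSBW and RBCS1A fell (4.57%). An F test of whether the N0 response differed between the NILs called 0 of the 43 genes and 0 of all probe sets. The lowest adjusted p was 0.880 (PSBX), and 1 of the 43 had an unadjusted p under 0.05, beside 5.66% of all probe sets. A difference between NILs in these responses was thus not detectable.

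Low light during growth of the mother plant gave 1 call in these genes. Of the 43, 0 rose and 1 fell in LL against SL, or 2.33%, beside 6.36% of all probe sets called (2.73% higher, 3.63% lower). Among the 13 genes above the median signal 0 rose and 1 fell (7.69%), beside 10.3% of all probe sets that bright. Of the 30 dimmer genes 0 were called. Whether the 43 were called less often than other probe sets was not tested. At an unadjusted p under 0.05 in limma there were 6 of the 43, beside 5280 of all 27827 probe sets. PSAD2 had 5.17, 5.67 and 5.78 in SL and 5.02, 5.18 and 5.44 in LL, and the ranges overlapped. It fell by 0.33 ± 0.10 (1.26-fold, adjusted p = 0.0445) in 3 of 3 NILs. That call was lost in 13 of the 18 fits that left out a single array, and without the 3 SL arrays numbered 2. Without replicate 3 of NIL DOG6 in SL, 2 genes rose. On that SL array LHCA3 (4.08), LHCA4 (6.22), PSAE1 (4.56) and PSAF (4.37) had their highest values of all arrays. So did PSAL (4.22), PSAO (4.24), PSBO1 (4.85) and PSBR (8.71), and no gene of the list had its lowest value there. High values on an SL array lower the difference of LL against SL. Why these genes were high on that array was not tested.

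The 95% intervals of the differences between LL and SL lay within 0.5 of zero on the log2 scale for 38 of the 43 genes and within 1 for all 43, with the outermost bound at 0.640 from zero (PSAL). The median change was 0.03, beside 0.01 for all probe sets. The largest difference was that of PSAF, the lumenal subunit at which plastocyanin docks. PSAF had 3.01, 3.50 and 4.37 in SL and 3.56, 3.84 and 4.30 in LL. It differed by 0.35 ± 0.14, which did not pass (adjusted p = 0.146).

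PSAL, which takes part in antenna contacts of photosystem I, differed by -0.30 ± 0.17 (adjusted p = 0.328), with 2.85 to 4.22 in SL and 2.31 to 3.65 in LL. PSAE2, a stromal subunit beside PSAD, differed by -0.26 ± 0.11 (adjusted p = 0.190), with 4.19 to 5.39 in SL and 4.22 to 4.95 in LL. The dim LHCB1.3 differed by -0.26 ± 0.15 (adjusted p = 0.369), with 2.83 to 3.87 in SL and 2.62 to 3.72 in LL. RBCS1B differed by 0.24 ± 0.13 (adjusted p = 0.325), with 1.78 to 2.45 in SL and 1.84 to 2.81 in LL. All of these ranges overlapped. The LHCA genes that differed most were LHCA2 at 0.22 ± 0.10 (adjusted p = 0.226) and LHCA3 at -0.19 ± 0.09 (adjusted p = 0.204). LHCB4.3 stood at 0.13 ± 0.11. Of the PSB genes PSBQ2 at 0.14 ± 0.12 and PSBO1 at 0.09 ± 0.14 differed most, and none of these genes passed.

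RBCS1A had 7.19, 7.40 and 7.69 in SL and 7.20, 7.55 and 8.44 in LL. The mean difference of 0.22 ± 0.10 did not pass (adjusted p = 0.195). In NIL DOG6 alone RBCS1A rose by 0.63 ± 0.17 (adjusted p = 0.0359, beside 2.50% of all probe sets called in that NIL), where a single array at 8.44 stood above the other two. Without that array, replicate 3 of NIL DOG6 in LL, the difference was 0.37 and did not pass (adjusted p = 0.230), an alternative chosen after seeing the data. In NIL DOG1 and NIL DOG3 0 of the 43 passed (1 and 4 at an unadjusted p under 0.05), beside 0.579% and 0.0144% of all probe sets. The F test of NIL by light called 0 of the 43 and 1 of all probe sets (0.00359%), with the lowest adjusted p of the 43 at 0.702 for RBCS1A.

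**Figure D3:**
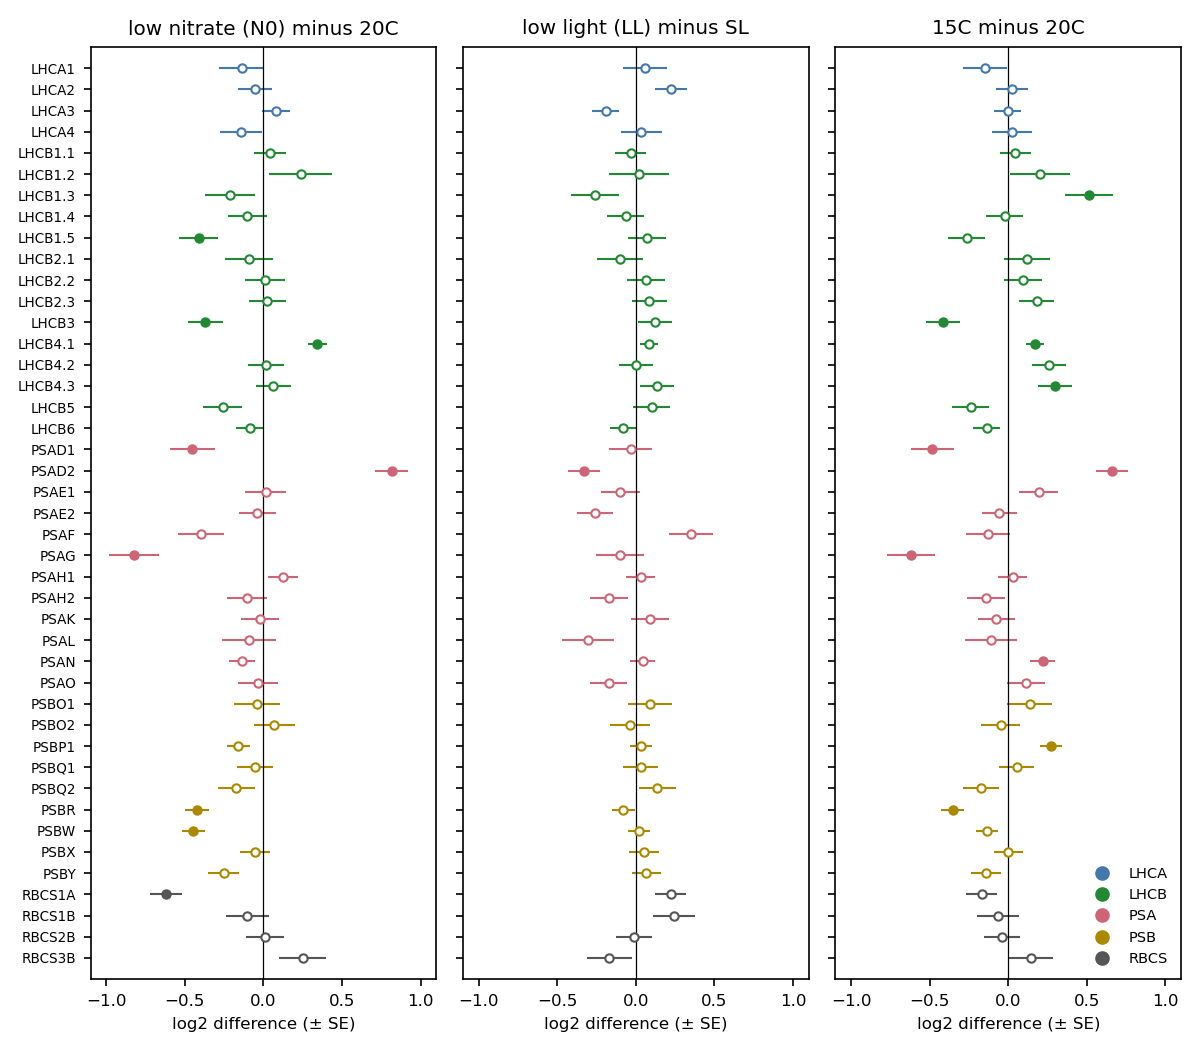
Log2 difference (horizontal axis, with SE) of each of the 43 genes in N0 against 20C, LL against SL and 15C against 20C, as the mean over 3 NILs; filled points passed at an adjusted p under 0.05. There are 9 filled points for N0, 1 for LL (PSAD2) and 10 for 15C, and N0 and 15C share their 20C arrays.

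The responses to low nitrate and to low light rest on separate arrays, so their difference was tested directly. The N0 response exceeded the LL response in 2 genes and lay below it in 6, or 18.6% of the 43, beside 13.8% of all probe sets (7.31% higher, 6.53% lower). Among the 13 genes above the median signal 2 were higher and 3 lower (38.5%), beside 23.9% of all probe sets that bright. Among the 30 dimmer genes 0 were higher and 3 lower (10%), and the share of all probe sets that dim was not computed here. PSAD2 differed most, with 0.82 in N0 and -0.33 in LL and a difference of 1.15 ± 0.15 (adjusted p = 5.50e-07). RBCS1A followed with -0.62 in N0 and 0.22 in LL (difference -0.84 ± 0.14, adjusted p = 4.69e-05). PSBW differed by -0.47 ± 0.10 (adjusted p = 0.00126), with 0.02 as its LL value.

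PSAF passed here although it passed in neither condition alone. It stood at -0.40 ± 0.15 in N0, where 6 of 8 arrays were below every 20C array (3.40 to 3.79 in 20C, 2.97 to 3.63 in N0), and at 0.35 in LL. The difference was -0.74 ± 0.20 (adjusted p = 0.00997). PSAG (-0.72 ± 0.22, adjusted p = 0.0234), LHCB3 (-0.49 ± 0.16, 0.0304), PSBR (-0.34 ± 0.11, 0.0276) and LHCB4.1 (0.26 ± 0.08, 0.0271) also passed. Those 4 calls were lost without the 3 SL arrays numbered 2. Leaving out a single array also ended them. For LHCB4.1 this was replicate 1 of NIL DOG6 in LL (adjusted p = 0.0527). For PSAG and LHCB3 it was replicate 3 of NIL DOG3 in N0, and for PSBR replicate 2. Either of these leaves 1 array of NIL DOG3 in N0.

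**Figure D4:**
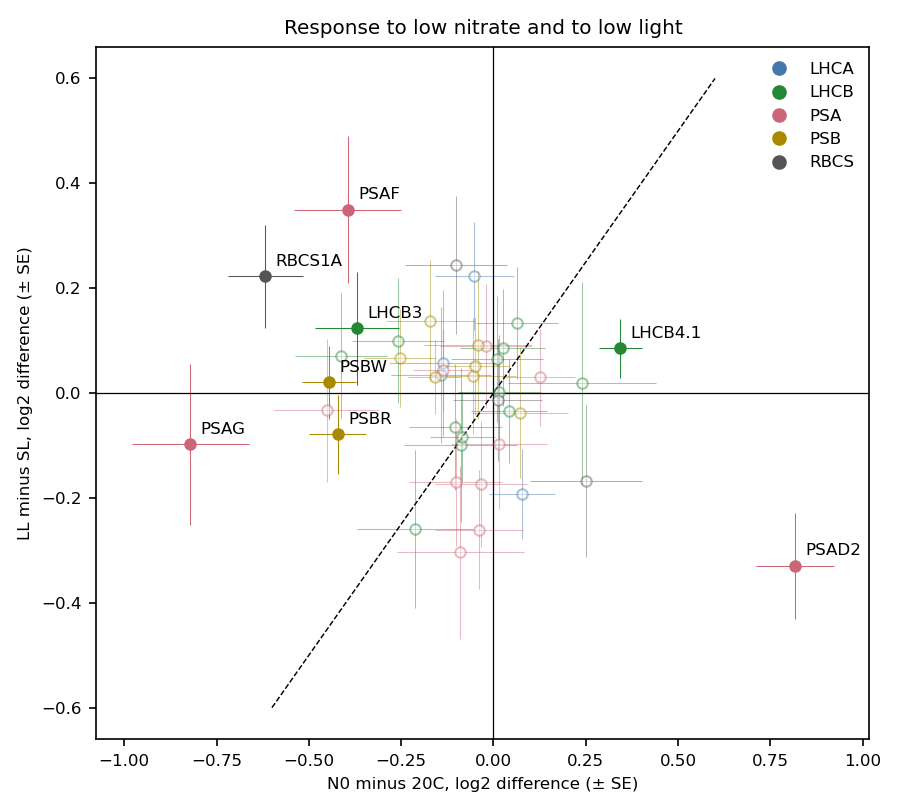
Log2 difference in N0 against 20C (horizontal axis) and in LL against SL (vertical axis) of the 43 genes, with SE on both; filled and named points are the 8 genes whose responses differed at an adjusted p under 0.05, and the dashed line marks equal responses. PSAD2 lies at the lower right and RBCS1A and PSAF at the upper left, while most other points lie near zero on both axes.

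Over the 43 genes together, lower temperature gave calls in a share close to that of the whole array, although most of the 43 are dim. Of the 43, 6 rose and 4 fell in 15C against 20C, or 23.3%, beside 25.3% of all probe sets (12.5% higher, 12.8% lower). Among the 13 genes above the median signal 4 rose and 1 fell (38.5%), beside 42.5% of all probe sets that bright. Among the 30 dimmer genes 2 rose and 3 fell (16.7%), and the share of all probe sets that dim was not computed for 15C. PSAD2 rose by 0.66 ± 0.10 (adjusted p = 4.52e-06), with 5.74, 6.07 and 6.44 in 15C, and 6 of 9 arrays lay above every 20C array. PSAG fell by 0.62 ± 0.15 (adjusted p = 0.00215), with 2.50, 2.83 and 3.58 in 15C. PSAD1 fell by 0.48 ± 0.14 (adjusted p = 0.00674), with 2.19, 2.36 and 2.87 in 15C. PSBR fell by 0.35 ± 0.07 (adjusted p = 0.000377), with 7.60, 7.99 and 8.12 in 15C and 7 of 9 arrays below every 20C array.

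Of the antenna genes, LHCB1.3 rose by 0.51 ± 0.15 (adjusted p = 0.00983), from 2.40, 2.88 and 3.79 in 20C to 2.73, 3.50 and 3.94 in 15C. LHCB3 fell by 0.42 ± 0.11 (adjusted p = 0.00347), with 3.16, 3.65 and 4.43 in 15C. These ranges overlapped. LHCB4.3 (0.30 ± 0.11, adjusted p = 0.0360), PSAN, a lumenal subunit of photosystem I (0.22 ± 0.08, 0.0382), and LHCB4.1 (0.17 ± 0.06, 0.0207) rose. LHCB4.3 was higher in 3 of 3 NILs, but PSAN and LHCB4.1 in 2 of 3. In NIL DOG6 LHCB4.1 ran from 8.41 to 8.52 in 20C and from 8.43 to 8.47 in 15C. These 3 calls were lost with arrays centred on their median. They were also lost without replicate 1 of NIL DOG6 in 20C (LHCB4.3, adjusted p = 0.0995), replicate 1 of NIL DOG6 in 15C (PSAN, 0.0955) and replicate 1 of NIL DOG3 in 20C (LHCB4.1, 0.0530). PSBP1, a water-splitting protein, rose by 0.27 ± 0.07 (adjusted p = 0.00286). RBCS1A stood at -0.17 ± 0.10 and did not pass (adjusted p = 0.237), and neither did any other RBCS or LHCA gene, of which LHCA1 (-0.15 ± 0.14) and RBCS3B (0.14 ± 0.14) differed most.

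Because 15C and N0 were compared with the same 20C arrays, their values are only set side by side. PSAD2 stood at 0.66 in 15C and 0.82 in N0, PSAG at -0.62 and -0.82, PSBR at -0.35 and -0.42, and RBCS1A at -0.17 and -0.62. Within NILs, 15C called 3 higher in NIL DOG1 (LHCB1.3, LHCB4.1 and PSAD2; 9.73% of all probe sets called), 2 lower in NIL DOG3 (PSAD1 and PSBR; 9.19%) and 2 higher in NIL DOG6 (LHCB1.4 and PSAD2; 11.7%). The F test of NIL by temperature called 0 of the 43 and 11 of all probe sets (0.0395%), with the lowest adjusted p at 0.327 (LHCB1.4). In that test 2 of the 43 had an unadjusted p under 0.05, beside 5.01% of all probe sets. The 2 control conditions, SL and 20C, differed in 0 of the 43 genes and in 7 of all probe sets, or 0.0252%. There, 5 of the 43 had an unadjusted p under 0.05 in limma, beside 2299 of all 27827 probe sets. Over the 3 treatments, 13 genes were called at least once and 30 in none, beside 31.4% of all probe sets called at least once. The 2 shares are close, but they were not split by signal, and most of the 43 are dim. PSAD2 was called in all 3, as were 1.67% of all probe sets.

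Between the NILs, LHCB4.1 was lower in NIL DOG6 than in both other lines. Over all conditions its lowest, median and highest arrays were 8.64, 8.97 and 9.24 in NIL DOG1, 8.56, 8.81 and 9.12 in NIL DOG3, and 8.15, 8.43 and 8.79 in NIL DOG6. Within each of the 5 conditions, every NIL DOG6 array was below every array of both other NILs. LHCB4.1 was lower in NIL DOG6 than in NIL DOG1 by a log2 difference of -0.49 ± 0.04 (adjusted p = 7.08e-11) and than in NIL DOG3 by -0.39 ± 0.04 (adjusted p = 2.50e-08). The lines differ in chromosome segments, and probe sequences were not used here.

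Beside LHCB4.1, NIL DOG6 against NIL DOG1 called PSAE2 (-0.27 ± 0.09, adjusted p = 0.0482), where 8.25% of all probe sets were called. NIL DOG6 against NIL DOG3 called PSAD1 (0.33 ± 0.11, adjusted p = 0.0440; 9.61% of all probe sets). NIL DOG3 against NIL DOG1 called 0 of the 43, beside 11.1% of all probe sets called. In that comparison 4 of the 43 had an unadjusted p under 0.05 in limma, beside 5998 of all 27827 probe sets. LHCB1.2, named after its values were seen, is a dim probe set with the highest residual SD of the 43 (0.432) and had its lowest, median and highest arrays at 2.92, 3.74 and 4.63 in NIL DOG1, 3.63, 4.14 and 4.89 in NIL DOG3, and 3.25, 3.53 and 4.88 in NIL DOG6. It stood at 0.43 ± 0.15 in NIL DOG3 against NIL DOG1 (adjusted p = 0.0669) and at -0.39 ± 0.15 in NIL DOG6 against NIL DOG3 (adjusted p = 0.114), and neither difference passed. The arrays of PSAE2 ran from 4.02 to 4.91 in NIL DOG6 and from 4.51 to 5.18 in NIL DOG1, and those of PSAD1 from 2.19 to 3.73 in NIL DOG6 and from 2.20 to 3.27 in NIL DOG3. Both pairs of ranges overlapped, and both calls were lost with only the arrays of the compared NILs in the fit.

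**Figure D5:**
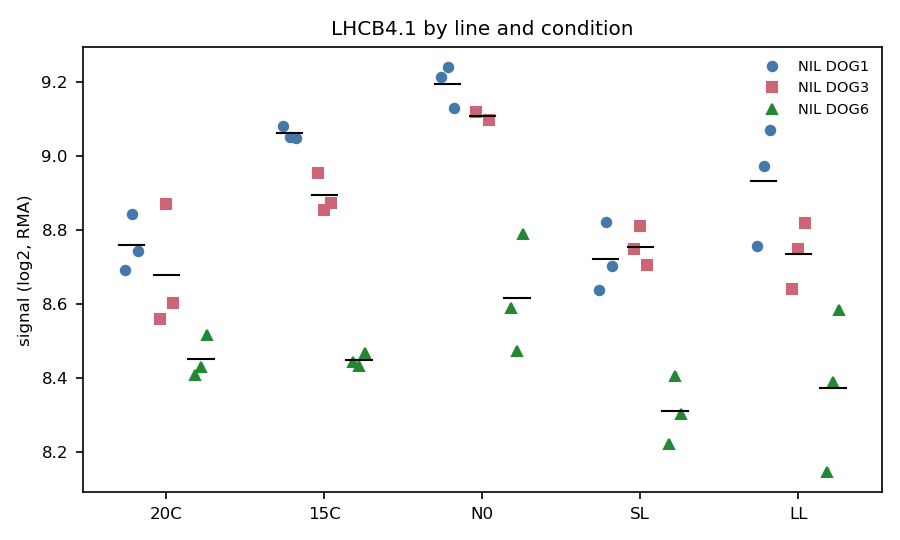
Signal (log2, vertical axis) of LHCB4.1 on single arrays by condition and NIL, with a bar at each group mean. In each of the 5 conditions the NIL DOG6 arrays lie below those of NIL DOG1 and NIL DOG3.

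The wider photosynthesis pathway was read from other listed genes. In N0 0 of 13 regulators of nuclear photosynthesis genes rose and 10 fell, beside 5.86% of all probe sets higher and 6.07% lower. Of the 13, 11 were above the median signal, where 10.2% of all probe sets were higher and 11.1% lower. CGA1, a GATA factor that promotes chloroplast growth, ran from 8.58 to 9.12 in 20C and from 6.81 to 7.83 in N0, without overlap, and fell by 1.62 ± 0.10 (adjusted p = 8.77e-14). Its paralogue GNC fell by 1.08 ± 0.08 (adjusted p = 1.67e-11). PIF5 (-1.09 ± 0.12, adjusted p = 1.56e-08) and PIF1 (-0.89 ± 0.10, 1.83e-08), factors that restrain greening in the dark, fell as well. Of the 6 sigma factors, which direct transcription inside the plastid, SIG6 (-0.64) and SIG4 (-0.40) fell.

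Of 15 Calvin cycle genes, 0 rose and 4 fell in N0. TKL1, a transketolase, ran from 7.56 to 8.28 in 20C and from 6.59 to 7.41 in N0 and fell by 1.03 ± 0.09 (adjusted p = 7.06e-10). The others were FBA1 (-0.35), CP12-1 (-0.23) and RPE (-0.18). Of 11 genes for electron transfer and ATP synthase 1 fell, PETC for the Rieske protein (-0.40 ± 0.08, adjusted p = 0.000929). Of 21 chlorophyll synthesis genes 1 rose (CAO, 0.28) and 2 fell (CHLD, -0.34, and HEMC, -0.21), and of 7 chlorophyll breakdown genes NYC1 rose (0.28). The shares called in electron transfer (9.09%), chlorophyll synthesis (14.3%) and chlorophyll breakdown (14.3%) were near the 11.9% of all probe sets. Among all probe sets above the median signal 21.2% were called. Of these 3 lists, 5 of 11, 14 of 21 and 7 of 7 genes were that bright. None of 8 rare or stress-type antenna genes passed in N0, with 1 at an unadjusted p under 0.05 in limma, beside 6305 of all 27827 probe sets.

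In LL, of the 8 rare or stress-type antenna genes 4 fell, namely ELIP1, OHP2, LHCA5 and LHCB7, beside 3.63% of all probe sets lower in LL. ELIP1, an early light-induced protein that binds free chlorophyll under stress, ran from 8.30 to 10.42 in SL and from 6.74 to 9.96 in LL and fell by 0.97 ± 0.12 (adjusted p = 5.08e-06). The others were OHP2 (-0.39), LHCA5 (-0.27) and LHCB7 (-0.25). Among the regulators ABI4 rose (0.59 ± 0.11, adjusted p = 0.000588). In the lists for electron transfer, the Calvin cycle, chlorophyll synthesis, chlorophyll breakdown and sigma factors 0 genes passed in limma, with 2, 2, 5, 3 and 2 at an unadjusted p under 0.05. Of all 27827 probe sets, 5280 had an unadjusted p under 0.05 in that comparison. The N0 response minus the LL response passed, among others, in ELIP1 (1.32 ± 0.17, adjusted p = 9.07e-07), CGA1 (-1.59 ± 0.14, 3.79e-10), TKL1 (-1.06 ± 0.13, 3.54e-07) and PETC (-0.59 ± 0.12, 0.000452).

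In 15C 1 regulator rose and 8 of 13 fell, beside 12.5% of all probe sets higher and 12.8% lower, led by ABI4 (-1.05), PIF1 (-0.97), CGA1 (-0.92) and GNC (-0.74). TKL1 (-0.91), FBA1 (-0.44) and PGK1 (-0.34) fell among Calvin cycle genes, and SIG4 (-0.53), SIG6 (-0.52) and SIG5 (-0.24) among sigma factors. Among antenna genes of the stress type ELIP1 (0.84) and LHCA5 (0.34) rose. NYC1 rose among breakdown genes (0.50), 3 of 21 chlorophyll synthesis genes rose and 3 fell, and PDE334 (-0.28) fell among electron transfer and ATP synthase genes. The shares called in chlorophyll synthesis (28.6%), the stress-type antenna genes (25%) and the Calvin cycle (20%) were near the 25.3% of all probe sets. Those in chlorophyll breakdown (14.3%) and electron transfer (9.09%) were below it, with 1 gene called in each. Among all probe sets above the median signal 42.5% were called. Of these lists, in the order given, 14 of 21, 5 of 8, 9 of 15, 7 of 7 and 5 of 11 genes were that bright, as were 11 of 13 regulators.

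Some markers of green leaf and silique tissue, taken from photorespiration, fell in N0 and 15C. Of 10 such genes 8 were above the median signal. The leaf genes CA1 and GOX1 were below it, with medians of 2.60 and 3.74 in 20C, 2.63 and 3.75 in N0, and 2.45 and 3.78 in 15C. The mean level of the 10 per array was 6.03 to 6.31 in 20C, 5.62 to 6.08 in N0, 5.67 to 6.05 in 15C, 6.17 to 6.46 in LL and 6.12 to 6.31 in SL. In N0 0 of the 10 rose and 4 fell, beside 5.86% of all probe sets higher and 6.07% lower. Among the 4 were SHM1 (-0.85), GLDP1 (-0.77) and GGT1 (-0.58). Of the 10, 6 were not called and 2 lay above zero. In 15C 1 rose, 5 fell and 4 were not called, beside 12.5% of all probe sets higher and 12.8% lower. In LL 1 rose (GLDP1, 0.38), beside 2.73% of all probe sets higher. The part of these markers in the results was not tested. The dry seed markers SESA2 (-0.69), SESA4 (-0.66) and SESA1 (-0.58) fell in N0, and the other 7 did not pass. The same 3 fell in 15C by 0.27 to 0.39 on the log2 scale. Seed coat markers, 1 of 5 of them above the median signal, did not pass in N0, rose in 2 of 5 cases in 15C and in 1 case in LL (TT10, 0.34). Pollen markers did not pass in N0, and 2 of 6 fell in 15C (AGP23, -0.95, and PPME1, -0.45). In 15C all 6 lay below zero, with a median of -0.75. Each of the 6 had an unadjusted p under 0.05 in limma, as did 9417 of all 27827 probe sets. The mean level of the 6 per array was 5.62 to 6.81 in 20C, 5.71 to 6.95 in N0 and 5.20 to 6.04 in 15C, and their part in the results was not tested.

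Measured profiles over the 15 groups varied widely among the 43 genes. Over the 15 group means, Pearson correlations between pairs of them ran from -0.87 (PSAG and PSAD2) to 0.90 (PSBR and PSAD1), with a median of 0.11. PSBW and RBCS1A had 0.86, and PSBR and PSBW 0.79. These means share the arrays and their normalization, and the values are descriptions. Of the 43 genes 30 were below the median signal, and pairs of equally dim probe sets were not set beside them. A shared profile hidden by the noise of dim probe sets therefore cannot be told from these values. The genes outside the list with the profile most like the mean of the 43 were MES5 (0.92), NAC083 (0.91), RD2 (0.91), WDL1 (0.91) and RTFL17 (0.91), over the same 15 means. They were picked as the highest of all probe sets outside the list, so high values come with the choice. With a median of 0.11 between pairs, that mean is not a profile most of the 43 were seen to share.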

How the data were processed

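The table used holds log2 values that the authors deposited for 44 arrays, made with RMA (background correction, quantile normalization and probe summary) per the submitters' processing notes. Information on the RMA version, probe annotation and genome build was not given in the sources used here. Quantile normalization gives the arrays nearly equal distributions, so a change in total RNA would not be seen. Of 125 listed loci outside the 43 genes, 113 were found, and the plastid-encoded list was reduced to 1 locus and is not reported. Gene symbols came from a RefSeq table of the assembly TAIR10.1.

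A single limma model (version 3.58.1, lmFit then eBayes, R 4.3.3) held the means of the 15 groups, with no filter and no replicate block, leaving 29 residual degrees of freedom. A condition effect is the mean of the 3 within-NIL differences, and a NIL difference the mean of the 5 within-condition ones. Tests were two-sided, p-values were adjusted by Benjamini-Hochberg over all 27827 probe sets, and 0.05 was the threshold. No list was tested as a set. The fit was checked on simulated data. The 43 genes, the other lists and the naming rule were chosen with earlier results of these data known. The rule named each called gene, the 2 largest changes per family and up to 4 called genes per other list. Where replicate numbers are shared between conditions of a NIL, correlations of their deviations had medians of 0.01 (N0 and 20C), 0.04 (LL and SL) and 0.04 (15C and 20C), and few exceeded 0.1, so the numbers were not taken as pairs. Alternatives changed the arrays in the fit, the block, a filter on dim probe sets, the normalization, the eBayes prior and the replicates. Promoter and protein sequences had been planned and were not used here.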

Additional observations from a re-analysis of the deposited data

How the results depend on the processing

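No difference of a called gene changed sign in the alternatives run. In N0 the count of genes that rose was 2 under each alternative; the count that fell was 4 in place of 7 among probe sets above the median signal, which leaves out the 3 dim genes, 3 to 6 without a replicate number, and 4 without NIL DOG1 20C replicate 1 or NIL DOG6 20C replicate 2. The LL fall of PSAD2 was lost (0 genes) with arrays centred on their median, with quantile normalization again, without each replicate number, without the 3 SL arrays numbered 2 and without 13 single arrays; 2 genes rose without NIL DOG6 SL replicate 3. In 15C the count that rose was 3 in place of 6 with centred arrays and 1 to 4 without a replicate number; the count that fell was 1 in place of 4 among probe sets above the median, 1 to 4 without a number and 4 to 5 without a single array. For the N0 against the LL response, 1 in place of 2 was higher with only the compared arrays, without each number, without the 3 SL arrays and without any of 3 single arrays (NIL DOG6 N0 replicate 3, NIL DOG1 LL replicate 1, NIL DOG6 LL replicate 1); 3 in place of 6 were lower without those arrays, 1 to 5 without a number and 4 to 8 without a single array. Between NILs, DOG3 against DOG1 had 1 in place of 0 with only the compared arrays, among probe sets above the median, or without replicate 1. DOG6 against DOG1 had 1 in place of 2 with only the compared arrays and without each number. DOG6 against DOG3 had 4 in place of 2 with centred arrays and with eBayes trend and robust, and 1 without replicate 3. The cause of these changes was not tested, and leaving out a number removes arrays from nearly every group. Leaving out number 2, number 3 or a single array of NIL DOG3 in N0 leaves 1 array in that group. With the replicate number as a block, 31 of 32 named calls were kept, and PSAD1 in DOG6 against DOG3 was not (adjusted p = 0.0508). Of 28 calls between conditions, 17 held without any single array. With 30 of 43 genes below the median signal, background limits what their differences can show.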
